A study of Mus musculus with 8 samples.

Results

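The major histocompatibility complex (MHC) class I presentation genes were followed in mouse islets as 10 genes chosen by symbol, of 30406 genes listed for every library. They are the heavy chain genes H2-K1, H2-D1, H2-T23 and H2-Q7, the light chain gene B2m, the peptide transporter genes Tap1 and Tap2, the peptide loading factor Tapbp, the peptide trimming enzyme Erap1 and the transcriptional regulator Nlrc5. All 10 had unique molecular identifier (UMI) counts in β-cells.

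MHC class I molecules carry short peptides from proteins made inside the cell to its surface, where CD8+ T cells read them. Peptides cut by the proteasome are pumped into the endoplasmic reticulum by the Tap1 and Tap2 transporter, trimmed there by Erap1, and loaded with the help of tapasin, the product of Tapbp, onto a heavy chain paired with β2-microglobulin, the product of B2m. IFN-γ is a classical inducer of these genes through Irf1 and Nlrc5, and raised class I on β-cells is a known feature of islets in type 1 diabetes.

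Islets of male C57BL/6 mice (C57BL6/J in the study's methods) aged 12 to 16 weeks were pooled from 10 animals per replicate, divided over 4 conditions as intact islets and held for 18 h. One portion was left untreated, the second received IL-1β at 10 U/mL with IFN-γ at 150 U/mL (cytokines), the third received both cytokines with the nitric oxide synthase inhibitor NMMA at 2 mM (cytokines with NMMA), and the fourth received NMMA at 2 mM alone. The islets were then dispersed and each condition of each replicate gave 1 droplet single-cell RNA library, so that 8 libraries form 4 groups of 2. The agents acted on whole islets for the full time, so that a response of 1 cell type to factors released by another cannot be told apart from its own response to the cytokines.

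The 8 libraries held 26549922 to 50731370 UMIs each. Of 17426 barcodes, 10876 passed the filters on gene number and mitochondrial share, with a median depth of 3983 UMIs per cell in untreated replicate 2 and of 6246 to 24136 UMIs in the other 7 libraries. No pair of libraries shared more than 2 kept barcodes. Clusters were named from marker genes as β-like, α-like, δ-like, macrophage-like, endothelial-like and mesenchymal-like, and are called by these cell types here. They held 6333 β-cells, 692 α-cells, 324 δ-cells, 324 macrophages, 362 endothelial cells and 220 mesenchymal cells. The names were rebuilt from the counts and can differ from those of the study. Each type but the mesenchymal cells was made of several clusters that split by condition or replicate. β-cells of replicate 1 and of replicate 2 lay mostly in different clusters, and cytokine-treated cells lay mostly apart from untreated ones. The 10 members and the other genes of the pathway had no part in the clustering. Only 9 δ-cells of cytokines replicate 1 were found, under the minimum of 10, so δ-cells under cytokines are 1 library of 11 cells, which is assumed to vary like the other δ-cell libraries.

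The defining hormone genes marked the endocrine types, but markers of other types were detected too. In β-cells, the 11 macrophage markers summed to 71.2 and 48.0 CPM (counts per 1000000 UMIs of the cells, without further scaling) in the untreated libraries and to 123 and 67.8 CPM under cytokines, against 20320 and 17650 CPM in untreated macrophages, with Adgre1 at 0 in 7 of the 8 β-cell libraries. Over all β-cells that sum was mostly C1qa (73.3 CPM, against 3565 in macrophages) and Cd68 (11.9 against 1133 CPM), while C1qb (0.28 against 4534 CPM), C1qc (0.22 against 2649), Lyz2 (0.42 against 3403) and Tyrobp (0.17 against 2612) were near 0. T cell markers were at 0 in β-cells of all 8 libraries. The summed β-cell markers, led by Ins2, reached 18570 and 43590 CPM in untreated macrophages and 2289 and 6760 under cytokines, where 4 of the 9 markers were detected and Slc2a2, Ucn3, Mafa, Nkx6-1 and G6pc2 were at 0. In α-cells all 9 were detected and lay at 15040 and 35710 CPM without treatment and at 54010 and 51330 under cytokines. In endothelial cells of cytokines with NMMA replicate 1 the macrophage markers summed to 1120 CPM, against 2.85 to 9.69 in the other endothelial libraries. Over all endothelial cells the mesenchymal marker Rgs5 was at 326.7 CPM, against 221.5 in mesenchymal cells. Pdgfrb was at 177.5 against 319.5 CPM and Bgn at 169.2 against 761.9, while Col1a1 was at 4.26 against 1164 and Pdgfra at 0. The Schwann cell markers Sox10 and Ngfr were found in 7.73% and 10% of mesenchymal cells. Over all libraries the PP-cell marker Ppy was at 37450 CPM in α-cells and 29340 in δ-cells, and Pyy at 20870 and 50880. Clusters of PP-cells and of insulin-led cells were set apart from α- and δ-cells, unevenly by condition. PP-cells numbered 38 and 31 in the untreated libraries and 4 and 3 under cytokines, with or without NMMA. Insulin-led cells numbered 70 and 59 untreated, 1 and 0 under cytokines, and 0 and 0 with cytokines and NMMA. Cells with a second hormone at 2% or more of their UMIs made up 3.85% to 29.8% of the α-cells of a library, 0% to 36.2% of the δ-cells and 0% to 5.24% of the β-cells. The hormone genes counted for this were Ins2, Gcg and Sst, and Ppy was not among them. In the non-endocrine types, where any of these genes at that level was counted, the share reached 18.2% in macrophages, 22.5% in endothelial cells and 25% in mesenchymal cells. The part of these in the results was not tested, except that the tests were repeated without cells holding a second hormone.

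Of the 10 genes, 7 lie on chromosome 17 of the GRCm38 build, in or beside the MHC region. From one end, they are Tapbp (ENSMUSG00000024308, chr17:33915899-33929292, + strand), H2-K1 (ENSMUSG00000061232, chr17:33996017-34000347, − strand), Tap1 (ENSMUSG00000037321, chr17:34187553-34197225, + strand), Tap2 (ENSMUSG00000024339, chr17:34203527-34216321, + strand), H2-D1 (ENSMUSG00000073411, chr17:35262730-35267499, + strand), H2-Q7 (ENSMUSG00000060550, chr17:35439155-35443773, + strand) and H2-T23 (ENSMUSG00000067212, chr17:36029773-36032855, − strand). The others are B2m (ENSMUSG00000060802, chr2:122147686-122153083, + strand), Erap1 (ENSMUSG00000021583, chr13:74639568-74693201, + strand) and Nlrc5 (ENSMUSG00000074151, chr8:94434356-94527272, + strand). The heavy chain genes are near copies of each other, and reads that match several genes cannot be placed. Of the 91-base words in the last 500 bases of its transcripts, H2-T23 shared 12.9% with another gene, H2-Q7 4.55% (with H2-Q5) and H2-K1 0.0756%, while the other 7 members shared none.

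The promoters of 5 members are shown, those of H2-K1, H2-D1 and H2-Q7 because they carry the same words in the same order, and those of B2m and Tap1 beside them. They are the 250 bases before the RefSeq gene start on GRCm38.p6, which can differ from the start of the gene model above, 5′ to 3′ on the gene's strand. Capitals mark, on either strand, the NF-κB word GGGATTCCC, the interferon-response words GAAANNGAA or GAANNGAAA, the X2-box core TGACG and the Y-box core ATTGG.
H2-K1 (chr17:34000348-34000597, − strand): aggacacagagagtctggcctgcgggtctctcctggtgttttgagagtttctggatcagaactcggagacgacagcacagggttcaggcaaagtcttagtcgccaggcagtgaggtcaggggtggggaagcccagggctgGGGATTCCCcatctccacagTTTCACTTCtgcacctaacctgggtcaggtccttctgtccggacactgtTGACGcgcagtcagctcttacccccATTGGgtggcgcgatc
H2-D1 (chr17:35262844-35263093, + strand): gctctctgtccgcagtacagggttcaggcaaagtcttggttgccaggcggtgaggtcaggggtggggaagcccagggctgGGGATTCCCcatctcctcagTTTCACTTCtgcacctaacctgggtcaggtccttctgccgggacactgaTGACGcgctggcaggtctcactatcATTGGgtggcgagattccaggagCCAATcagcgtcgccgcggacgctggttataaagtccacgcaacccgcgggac
H2-Q7 (chr17:35438905-35439154, + strand): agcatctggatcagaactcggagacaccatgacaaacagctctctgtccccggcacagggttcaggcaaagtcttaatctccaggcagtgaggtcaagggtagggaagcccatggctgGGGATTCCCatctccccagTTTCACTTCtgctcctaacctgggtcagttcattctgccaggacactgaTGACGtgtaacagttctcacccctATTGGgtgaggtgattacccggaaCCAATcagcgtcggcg
B2m (chr2:122147437-122147686, + strand): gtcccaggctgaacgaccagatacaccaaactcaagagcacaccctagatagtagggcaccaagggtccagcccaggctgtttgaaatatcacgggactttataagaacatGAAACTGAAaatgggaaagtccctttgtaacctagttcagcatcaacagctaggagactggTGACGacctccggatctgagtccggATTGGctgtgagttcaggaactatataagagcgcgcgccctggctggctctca
Tap1 (chr17:34187306-34187555, + strand): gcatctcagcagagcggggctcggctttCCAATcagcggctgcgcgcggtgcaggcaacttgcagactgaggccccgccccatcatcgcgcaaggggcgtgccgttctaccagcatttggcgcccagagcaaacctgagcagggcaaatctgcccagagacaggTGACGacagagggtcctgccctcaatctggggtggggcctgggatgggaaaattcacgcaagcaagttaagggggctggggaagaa

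H2-K1, H2-D1 and H2-Q7 each held the NF-κB word, then an interferon-response word, then TGACG and then ATTGG on reading towards the start. In H2-K1 these began at −110, −90, −41 and −16 from the start, and in H2-D1 at −170, −150, −101 and −76. Of the 8 members with a promoter in the table (all but Tap2 and Nlrc5), 3 held the NF-κB word, against 0.301% of all 32851 promoters of this length. An interferon-response word was found in 6 of 8 (the 4 heavy chain genes, B2m and Erap1) against 12.5% of all promoters. TGACG was found in 5 of 8 against 17.8%, and ATTGG in 7 of 8 (all but Erap1) against 33.8%. These are matches of letters in a fixed window and were not tested for binding. The promoters of H2-K1, H2-D1 and H2-Q7 are near copies of each other around these words. Their matches are therefore not independent, and the shares were not tested against those of all promoters.

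The first comparison asked how class I genes of β-cells changed with 18 h of cytokines. All 10 members rose, from 1.89-fold for Erap1 to 23.8-fold for Tap1 and 42.2-fold for Nlrc5. In each of the 10 genes both cytokine libraries lay above both untreated libraries. Of all 12770 genes tested in β-cells, 23.8% were higher under cytokines, so that a rise alone was common. The median change of the members was 2.87 on the log2 scale, and that of all genes was 0.00. Levels in this and the next paragraphs are CPM after TMM scaling within the cell type, and each UMI stands for 1 captured molecule, so no division by gene length is needed.

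Among the heavy chains, H2-K1 is a classical class I molecule and was the most abundant member in untreated β-cells. It was at 633 and 507.2 CPM in the untreated replicates and at 1799 and 1122 CPM under cytokines, a log2 change of 1.36 ± 0.27 (SE, n = 2 libraries a group, adjusted p = 0.00381). H2-D1, the other classical molecule of this strain, went from 296.8 and 307 CPM to 1376 and 916 CPM, a log2 change of 1.92 ± 0.22 (adjusted p = 0.00019). The nonclassical heavy chains started lower and changed more in fold. H2-T23, which encodes the Qa-1 molecule read by natural killer cell receptors, went from 46.9 and 56.5 CPM to 465.7 and 293.8 CPM (log2 change 2.88 ± 0.28, adjusted p = 9.69e-05). H2-Q7, which encodes a Qa-2 molecule, went from 9.06 and 10.2 CPM to 131.6 and 77.9 CPM (log2 change 3.45 ± 0.25, adjusted p = 2.25e-05). For all 4 heavy chains replicate 1 lay above replicate 2 under cytokines, by more CPM than the untreated replicates lay apart.

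B2m, whose product pairs with every class I heavy chain, was at 195.9 and 198.5 CPM in untreated β-cells and at 1708 and 1174 CPM under cytokines, a 7.31-fold rise (log2 change 2.87 ± 0.24, adjusted p = 3.54e-05). Its 2 untreated libraries were nearly equal, and the lower cytokine library lay far above both. Tap1 was nearly silent without cytokines, at 5.17 and 5.08 CPM, and reached 137.7 and 106.6 CPM with them (log2 change 4.57 ± 0.20, adjusted p = 1.78e-06). Tap2 encodes the partner chain of the same transporter and started higher, at 18.3 and 14.0 CPM, but came to a like level of 164.1 and 113.7 CPM (log2 change 3.10 ± 0.23, adjusted p = 2.02e-05). Tapbp was already at 124.1 and 114.4 CPM and went to 396.9 and 303.6 CPM (log2 change 1.55 ± 0.17, adjusted p = 0.000135). Erap1 moved least, from 31.9 and 31.6 CPM to 66.3 and 53.5 CPM (log2 change 0.92 ± 0.16, adjusted p = 0.00184). Nlrc5, the class I transactivator, was counted 17 and 6 times in the untreated libraries and 528 and 249 times under cytokines, or 0.472 and 0.363 CPM against 20.2 and 16.7 CPM (log2 change 5.40 ± 0.29, adjusted p = 5.19e-06). Its share of molecules stayed the smallest of the 10 in all 8 libraries.

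**Figure D1:**
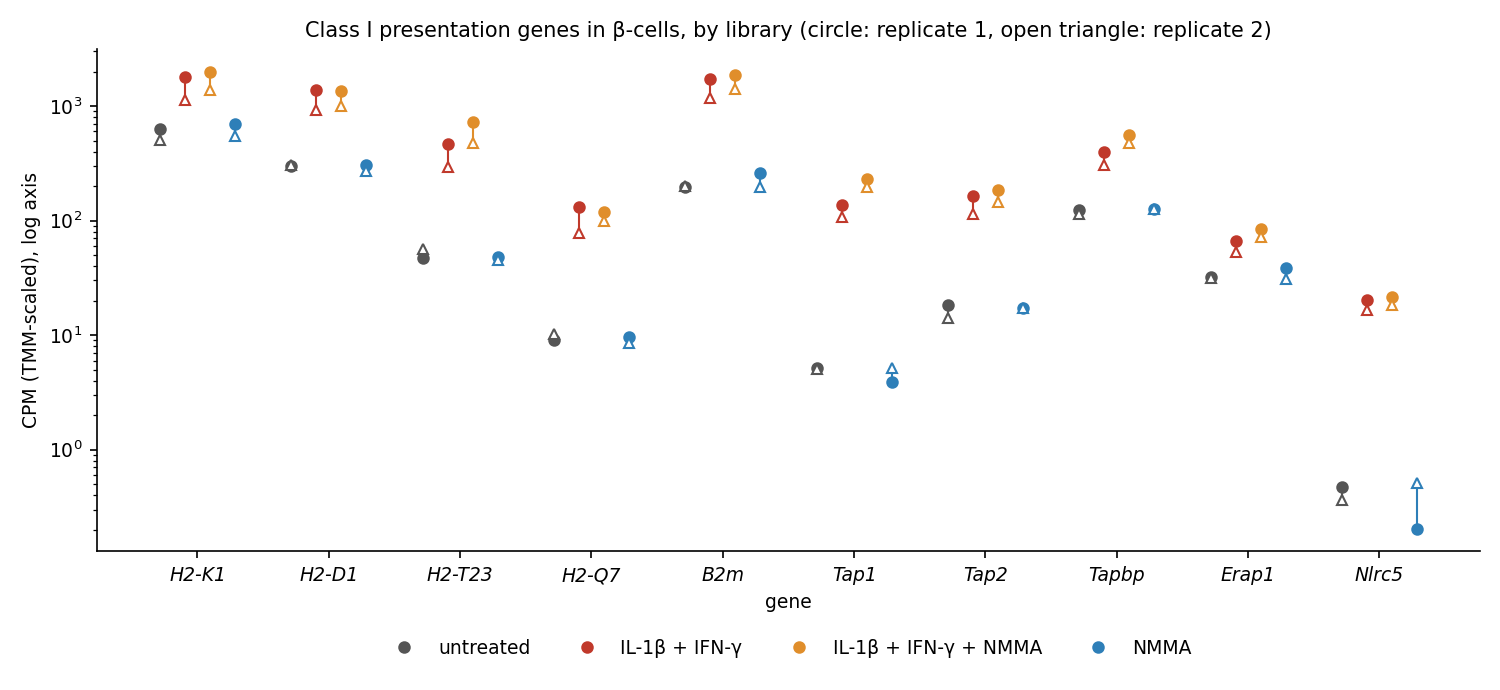
Level of each class I presentation gene in β-cells, in CPM after TMM scaling on a log axis, for the 4 conditions, with replicate 1 as filled circles and replicate 2 as open triangles. For every gene the 2 cytokine libraries and the 2 libraries of cytokines with NMMA lie above all untreated and NMMA libraries, as Tap1 shows with 106.6 CPM or more against 5.17 CPM or less.

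The members together were at 1392 and 1323 CPM in untreated β-cells, without TMM scaling, and at 5592 and 3748 CPM under cytokines. Their mix changed as well. H2-K1 was 46.5% and 40.7% of the members' UMIs without treatment and 28.7% and 26.9% under cytokines, while B2m went from 14.4% and 15.9% to 27.3% and 28.1%. Counted against the classical heavy chains, B2m had 0.211 and 0.244 UMIs for each UMI of H2-K1 and H2-D1 in untreated β-cells and 0.538 and 0.576 under cytokines. In untreated α-cells this ratio was 0.129 and 0.179, against 0.533 and 0.565 under cytokines. In macrophages the ratio was 0.918 and 0.922 without and 0.818 and 0.99 with cytokines, so that there the conditions overlapped.

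Single β-cells were compared after each was thinned to 10000 UMIs, which left out 82 and 96 shallower cells of the untreated libraries and 32 and 97 of the cytokine libraries. The median cell held 12 member UMIs in both untreated libraries and 56 and 36 in the cytokine libraries. The lowest decile of the cytokine-treated cells of replicate 1 was 29 member UMIs, which is above the highest decile of untreated cells, 26 UMIs. In replicate 2 these deciles were 13.5 and 25 UMIs, so that the distributions overlapped more. At least 1 Tap1 UMI was found in 4.30% (95% Clopper-Pearson interval 3.35 to 5.41) and 5.68% (3.83 to 8.05) of untreated β-cells and in 65.2% (62.3 to 68.0) and 56.1% (51.5 to 60.6) of cytokine-treated ones, and without thinning in 10.3% and 12.9% against 86.3% and 71.9%. H2-K1 was found in 98.6% and 97.3% of untreated β-cells and in 99.8% and 98.7% of cytokine-treated ones, so its rise lay in the amount per cell. Nlrc5 was found in 0.442% and 0.587% against 15.4% and 14.7%. The intervals cover counting error only.

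β-cells of 1 cluster stood apart. It was led by the heat shock genes Hspa1a, Hspa1b, Hspb1 and Dnajb1, was found in all 8 libraries with 38 to 146 cells, and had the lowest member level of any β-cell cluster in each cytokine-treated library. Under cytokines it held 2488 CPM of member UMIs in replicate 1, against 5682 in the cluster with most of that library's β-cells, and 1875 against 4082 in replicate 2. With cytokines and NMMA it held 2025 against 8082 in replicate 1 and 1353 against 6043 in replicate 2. In the untreated libraries the sum was 1211 against 1389 and 1293 against 1330 CPM of member UMIs. Tapbp was lower in this cluster there as well, at 41.0 against 128.5 CPM and at 69.6 against 129.1 CPM, and so it was with NMMA alone, at 69.3 against 127.9 and at 73.8 against 152.4 CPM. H2-K1, Tap2 and Erap1 were also lower in this cluster in all 4 of these libraries, H2-K1 at 534.5 against 645.1 and 459.8 against 552.1 CPM in the untreated ones. B2m was higher in all 4, at 210.1 against 200.1 and 269 against 203.2 CPM in the untreated ones. H2-D1 (326.2 against 302.1 and 364.2 against 320.9 CPM), H2-T23 and H2-Q7 were higher in both untreated libraries and in NMMA replicate 1 and lower in NMMA replicate 2, where H2-D1 was at 284.4 against 296.1 CPM. Of the single genes, Tap1 was at 30.4 in this cluster against 123.8 CPM in the main cluster of cytokine replicate 1, and at 20.8 against 109.9 in replicate 2. B2m was at 533.5 against 1556 and at 439.2 against 1161 CPM. These are levels of clusters within a library, in CPM without TMM scaling, given with no test.

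**Figure D2:**
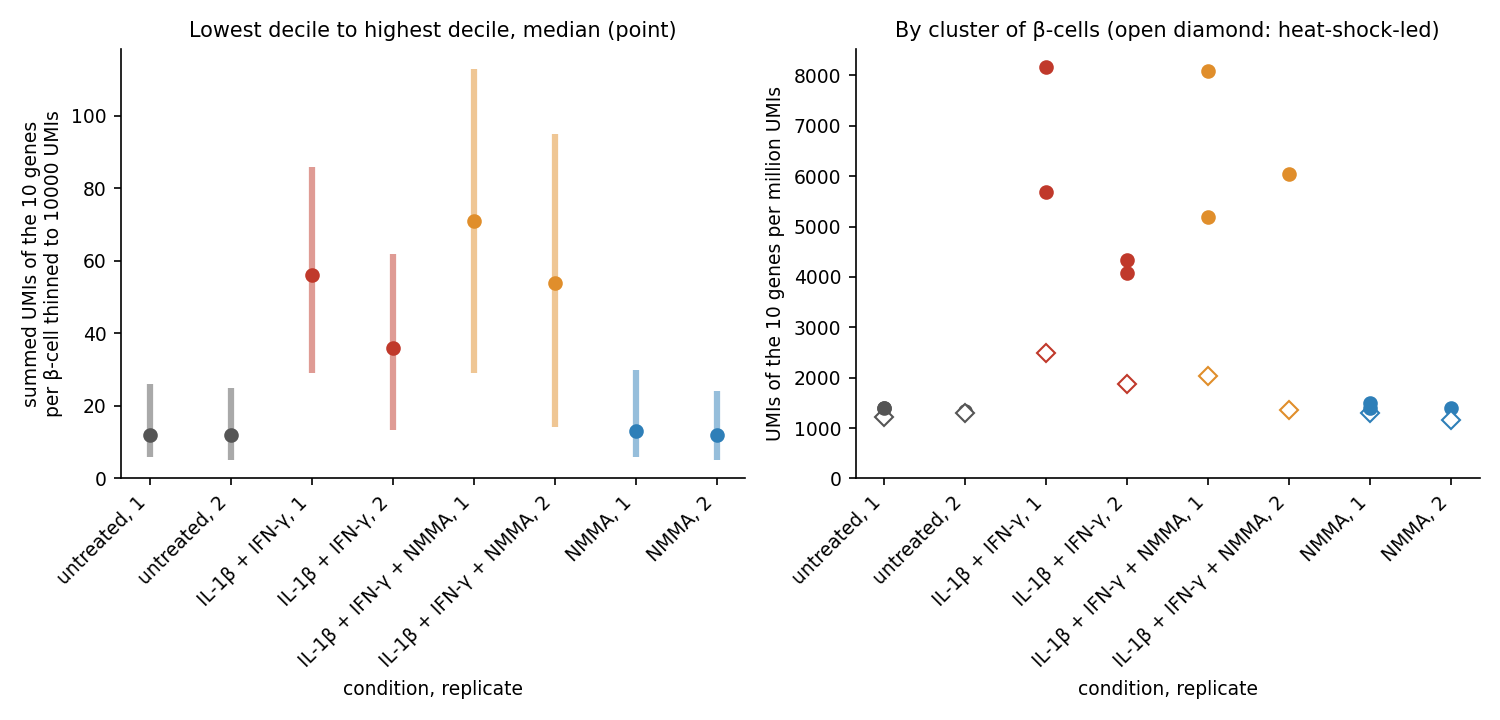
Left, class I member UMIs per β-cell at 10000 UMIs a cell, as the lowest decile, median and highest decile in each of the 8 libraries. Right, CPM of member UMIs, without TMM scaling, in each β-cell cluster of each library. Open diamonds mark the cluster led by heat shock genes, which lies lowest in the 4 cytokine-treated libraries (1353 to 2488 CPM of member UMIs).

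Untreated islets were then used to order the cell types by their class I levels. These levels are CPM after TMM scaling over the 12 sums of 6 types and 2 untreated libraries, a scale of their own. Macrophages, which present antigen, had the highest level of 8 of the 10 members and were far above the others for B2m. B2m was at 5207 and 7863 CPM in macrophages, 948.1 and 856.6 in endothelial cells, 441.2 and 601.6 in mesenchymal cells, 294.1 and 295.5 in β-cells, 202.7 and 331.3 in δ-cells and 193.4 and 234.2 in α-cells. Macrophages, endothelial and mesenchymal cells did not overlap with their neighbours in this order, while β- and α-cells lay within or beside the spread of δ-cells. H2-Q7 was at 339.7 and 701 CPM in macrophages, 66.5 and 95.8 in endothelial cells, 16.6 and 35.4 in δ-cells, 13.6 and 15.1 in β-cells, 15.4 and 8.85 in mesenchymal cells and 10.6 and 10.9 in α-cells. H2-K1 was at 2478 and 3700 CPM in macrophages, and δ-, β-, α- and endothelial cells followed between 977.8 and 630.6 CPM, each overlapping the next, above mesenchymal cells with 370.2 and 221.2 CPM. H2-D1 was at 3197 and 4827 CPM in macrophages, at 1034 and 962.3 in endothelial cells, at 445.5 and 457 in β-cells and at 410.3 and 407 in mesenchymal cells, with α- and δ-cells between 627.6 and 866.8 CPM. H2-T23 was at 345.9 and 437.5 CPM in macrophages and at 164.5 and 151.2 CPM in δ-cells, above β-cells with 70.4 and 84.1 CPM.

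Tapbp and Erap1 were the exceptions. Tapbp was at 186.3 and 170.3 CPM in β-cells and at 168.3 and 149.1 CPM in macrophages, which did not pass the test (−0.16 ± 0.18, adjusted p = 0.483), and was lowest in mesenchymal cells (55.5 and 44.2 CPM). Erap1 was at 46.3 to 53.1 CPM in the 3 endocrine types and at 13.3 to 34.3 CPM in the others. Tap1 was at 40.5 and 56.3 CPM in macrophages with endothelial cells next (6.05 and 22.02 CPM), and Tap2 was at 99.7 and 67.9 CPM in macrophages against 40.7 CPM or less elsewhere. Nlrc5 had 3.12 and 11.6 CPM in macrophages, about 1 CPM or less in α- and β-cells, and no UMI in δ-, endothelial and mesenchymal cells, and was left out of the test across types by its low counts.

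Macrophages differed from β-cells in 8 of the 9 tested members (with the library as a block), 7 of them higher, against 25.9% of all genes higher. The log2 differences ran from 1.75 ± 0.24 for Tap2 to 4.44 ± 0.19 for B2m and 5.12 ± 0.20 for H2-Q7 (adjusted p = 5.14e-23), while Erap1 was lower by −0.91 ± 0.30 (adjusted p = 0.0103), against 28.1% of all genes lower. Endothelial cells were higher in 6 members, against 29.7% of all genes higher, led by H2-Q7 with 2.45 ± 0.23 and B2m with 1.62 ± 0.17, and lower in Tapbp and Erap1, against 30.7% of all genes lower. Mesenchymal cells were higher in B2m alone (0.80 ± 0.18, adjusted p = 0.000267), against 24.5% of all genes higher. They were lower in Tapbp (−1.85 ± 0.24), H2-K1 (−1.55 ± 0.25), Erap1 (−1.39 ± 0.36) and H2-T23 (−0.84 ± 0.28), against 25% of all genes lower. δ-cells were higher in H2-T23 (1.06 ± 0.18, adjusted p = 1.17e-05) and H2-D1 (0.71 ± 0.16, adjusted p = 0.00106), against 10% of all genes higher. α-cells were higher in H2-D1 (0.60 ± 0.16, adjusted p = 0.00373), against 12.6% of all genes, and lower in Tapbp (−0.63 ± 0.16) and B2m (−0.48 ± 0.17), against 15.4%. None of these 3 α-cell calls was made without the block. Over all the types compared, 5 calls of single genes were lost without it and 21 were kept. Scaling by total UMIs moved the median of all genes by 0.16 to 0.85 between types, and the α-cell difference of B2m (0.04) and the endothelial difference of Tapbp (0.13) then changed sign. That scaling gave 5 members higher (41.2% of all genes) and 0 lower (5.86%) in α-cells, and 6 higher in δ-cells (41%). It gave 7 higher and 0 lower in macrophages (32.1% and 21.5% of all genes) and in endothelial cells (55.9% and 15%), and 3 higher and 2 lower in mesenchymal cells (40.5% and 12.7%).

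**Figure D3:**
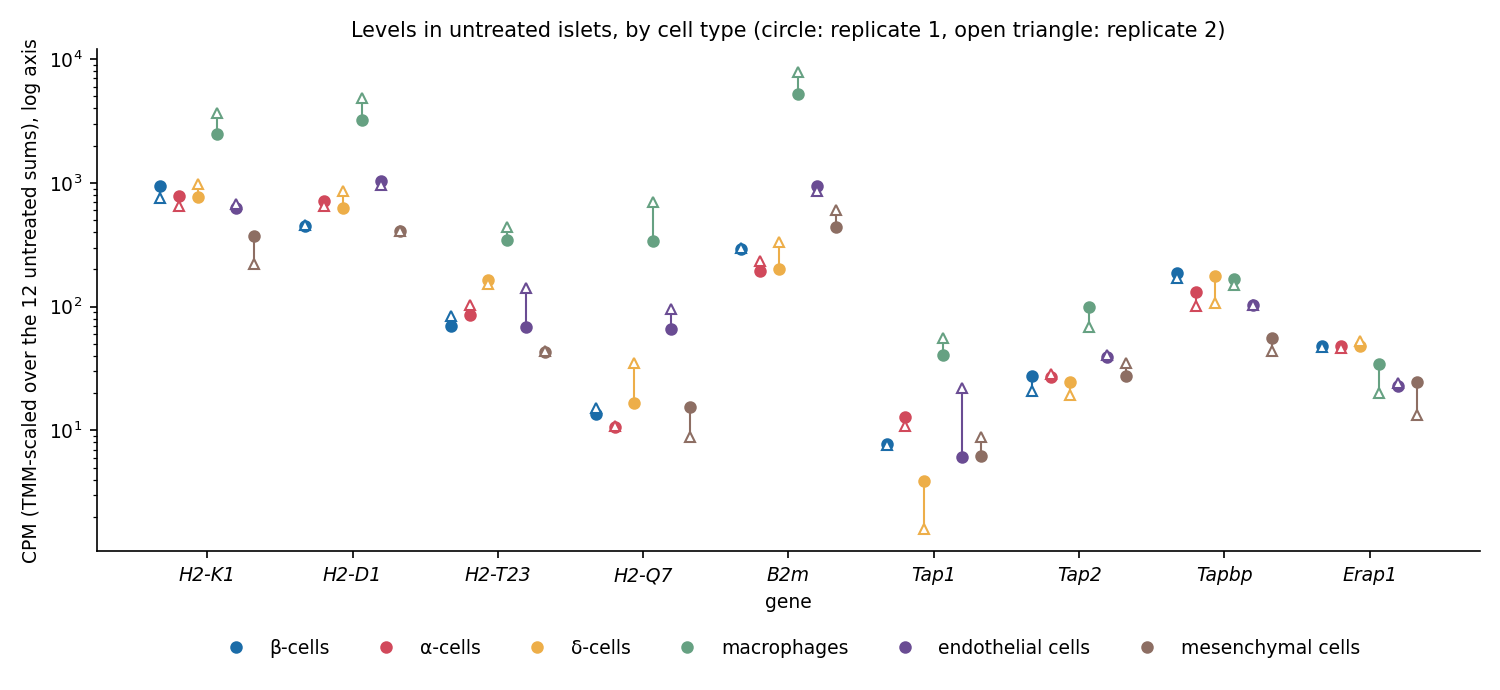
Level of the class I presentation genes in 6 cell types of untreated islets, in CPM after TMM scaling over the 12 untreated sums on a log axis, with 1 point for each replicate; Nlrc5 is not drawn. Macrophages lie highest for all genes drawn but Tapbp and Erap1, with B2m at 5207 and 7863 CPM against 948.1 CPM or less elsewhere.

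The second comparison followed the same cytokine response through the other cell types. It was broad in each. α-cells rose in all 10 members, against 12.3% of all genes higher. δ-cells rose in 9, against 4.19%, endothelial cells in all 10, against 4.46%, mesenchymal cells in 8, against 1.73%, and macrophages in 6, against 3.82%.

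In α-cells all 10 members were called higher. B2m was at 172.1 and 207.7 CPM in untreated α-cells and at 1786 and 1767 CPM under cytokines (log2 change 3.22 ± 0.24, adjusted p = 6.44e-08). Tap1 went from 11.4 and 9.66 CPM to 153.8 and 131 CPM (3.75 ± 0.27), and H2-K1 from 701.3 and 580.6 CPM to 1620 and 1492 CPM (1.28 ± 0.21). The 2 libraries of a condition were close and the conditions far apart. Nlrc5 had 3 UMIs over the untreated α-cells and 56 under cytokines, a ratio of 25.8 (95% counting interval 8.38 to 129). The remaining log2 changes were 1.09 for Erap1, 1.47 for H2-D1, 1.61 for Tapbp, 2.14 for H2-T23, 2.43 for Tap2 and 3.10 for H2-Q7. The Erap1 call was lost without replicate 1 of cytokines (0.70) or replicate 2 of untreated (1.05). None of the 10 responses passed the test of the difference from β-cells, in which 3.16% of all genes did, while scaling by total UMIs gave 3 members lower, against 5.84% of all genes.

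In δ-cells, Tap1 was at 4.31 and 1.80 CPM without treatment and at 253.9 CPM in the single cytokine library, a log2 change of 6.17 ± 0.40 (adjusted p = 9.63e-09) that rests on 4 and 1 UMIs in the untreated libraries. H2-Q7 was at 18.3 and 39.6 CPM and then at 403 CPM (3.86 ± 0.37), and B2m at 223 and 370.9 CPM and then at 2330 CPM (2.98 ± 0.31). Tap2 (2.87 ± 0.35), H2-T23 (2.69 ± 0.30), H2-D1 (1.38 ± 0.29), H2-K1 (1.21 ± 0.30) and Tapbp (1.14 ± 0.31) rose as well, and Erap1 was not called (0.57 ± 0.41, adjusted p = 0.477). The H2-K1 (1.12) and H2-D1 (1.24) calls were lost without untreated replicate 1, and the Tapbp call without replicate 2 of untreated (0.86) or of cytokines with NMMA (1.15). Nlrc5 had no UMI in untreated δ-cells and 7 under cytokines, or 22.2-fold higher with a floor of 3 UMIs put in the untreated group. This ratio leaves out the counting error of the 7 UMIs. The Tap1 response exceeded that of β-cells by 1.81 ± 0.59 but did not pass the test (adjusted p = 0.0578), and 0 members did, against 3.4% of all genes, whose median difference was −0.39, while scaling by total UMIs gave 4 members higher, against 2.85% of all genes.

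Without the replicate block fewer members were called in macrophages than in the other types, and no test compared the counts. B2m was at 4632 and 6726 CPM in untreated macrophages and at 7853 and 10640 CPM under cytokines (0.70 ± 0.24, adjusted p = 0.132), and H2-D1 at 2844 and 4129 CPM and then at 4815 and 5910 CPM (0.62 ± 0.23, adjusted p = 0.185). H2-Q7 (0.94 ± 0.29, adjusted p = 0.0865) and Erap1 (1.11 ± 0.41, adjusted p = 0.182) were not called either. With the replicate as a block, B2m (adjusted p = 0.00899), H2-D1 (adjusted p = 0.0189) and H2-Q7 (adjusted p = 0.00342) were called with like log2 changes, which gave 9 of 10 members higher, against 6.09% of all genes in that fit. H2-T23 rose from 307.7 and 374.2 CPM to 1651 and 1544 CPM (2.22 ± 0.23, adjusted p = 2.04e-05). Tap1 rose from 36.0 and 48.2 CPM to 241 and 231.7 CPM (2.45 ± 0.35, adjusted p = 0.00059). Tap2 (1.49 ± 0.28), Tapbp (1.59 ± 0.24), H2-K1 and Nlrc5 (2.84 ± 0.52) made up the rest of the 6 genes that rose, with Nlrc5 going from 2.77 and 9.92 CPM to 56.3 and 52.1 CPM. The H2-K1 call (0.84 ± 0.22, adjusted p = 0.0448) was lost in 5 of the 8 fits that left out 1 library (0.64 to 0.86), and the Tap2 call without untreated replicate 2 (1.19). In the test of the difference, 5 members rose less in macrophages than in β-cells, H2-Q7 by −2.17 ± 0.28 (adjusted p = 7.82e-12), B2m by −1.91 ± 0.22 (adjusted p = 6.1e-14), Tap1 by −1.89 ± 0.38, Tap2 by −1.39 ± 0.34 and H2-D1 by −1.04 ± 0.23, against 3.04% of all genes. Without cytokines replicate 1, H2-D1 (−0.61) and Tap2 (−1.19) were no longer called, and without untreated replicate 2, Tap1 (−1.81) was not.

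Endothelial cells line the islet capillaries. H2-K1 was at 791.9 and 845.7 CPM in the untreated libraries and at 5111 and 3849 CPM under cytokines (2.45 ± 0.22, adjusted p = 7.07e-07). H2-T23 went from 85.5 and 175.4 CPM to 2138 and 2354 CPM (4.09 ± 0.31), and Tap1 from 7.60 and 27.4 CPM to 696.6 and 606.1 CPM (5.11 ± 0.40). B2m went from 1191 and 1066 CPM to 6087 and 8216 CPM, a 6.34-fold rise. H2-Q7 (3.79 ± 0.29), Tap2 (3.42 ± 0.26), Tapbp (2.65 ± 0.24) and H2-D1 (2.10 ± 0.20) rose as well. Nlrc5 had 0 UMIs in both untreated libraries and 18 and 26 under cytokines. With 3 UMIs put in the untreated group this was 28.6-fold higher, leaving out the counting error of the cytokine UMIs. The Erap1 call (1.26 ± 0.34, adjusted p = 0.0345) was lost without any 1 of the 4 untreated or cytokine libraries (1.08 to 1.38). H2-T23 (1.43 ± 0.26, adjusted p = 6.27e-06), H2-K1 (1.24 ± 0.23, adjusted p = 7.41e-06) and Tapbp (1.23 ± 0.27, adjusted p = 0.000361) rose more than in β-cells, against 2.54% of all genes. Without untreated replicate 1 none of the 3 was called, at 1.06, 0.99 and 1.14, and Tapbp was not called without replicate 2 of cytokines either (0.97). Endothelial cells under cytokines lay mostly in another cluster than untreated ones, and 80 cells came from a cluster of few UMIs.

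Mesenchymal cells had the lowest untreated H2-K1 and H2-T23 levels of the 6 types and rose steeply in both. H2-T23 went from 47.6 and 48.4 CPM to 1436 and 893.8 CPM (4.58 ± 0.44, adjusted p = 0.000383), H2-K1 from 408.3 and 242.2 CPM to 2586 and 1435 CPM (2.63 ± 0.45), and Tap1 from 6.80 and 9.69 CPM to 373.6 and 315.2 CPM (5.28 ± 0.47). H2-Q7 (4.82 ± 0.61), Tap2 (3.13 ± 0.56), Tapbp (2.99 ± 0.39), B2m (2.60 ± 0.38) and H2-D1 (2.47 ± 0.43) rose as well. The sums here were small, from 13 to 39 cells a library in these 4 libraries. Leaving out untreated replicate 1 or 2 lost the calls of H2-K1 (3.03 and 2.29), H2-D1 (2.47 and 2.45), B2m (2.39 and 2.83) and Tap2 (2.97 and 3.31). Leaving out cytokines replicate 1 lost those of H2-K1 (2.12), H2-D1 (1.97) and Tap2 (2.63). Erap1 (1.47 ± 0.64, adjusted p = 0.492) was not called. Nlrc5 went from 0 to 8 UMIs in each replicate, and was called with the replicate block alone (adjusted p = 0.0391 against 0.0912). With 3 UMIs put in the untreated group it was 8.07-fold higher, leaving out the counting error of the cytokine UMIs. H2-T23 rose more than in β-cells by 1.73 ± 0.49 (adjusted p = 0.0293), against 0.534% of all genes. This call was lost on leaving out any 1 of the untreated or cytokine libraries (1.64 to 1.80).

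**Figure D4:**
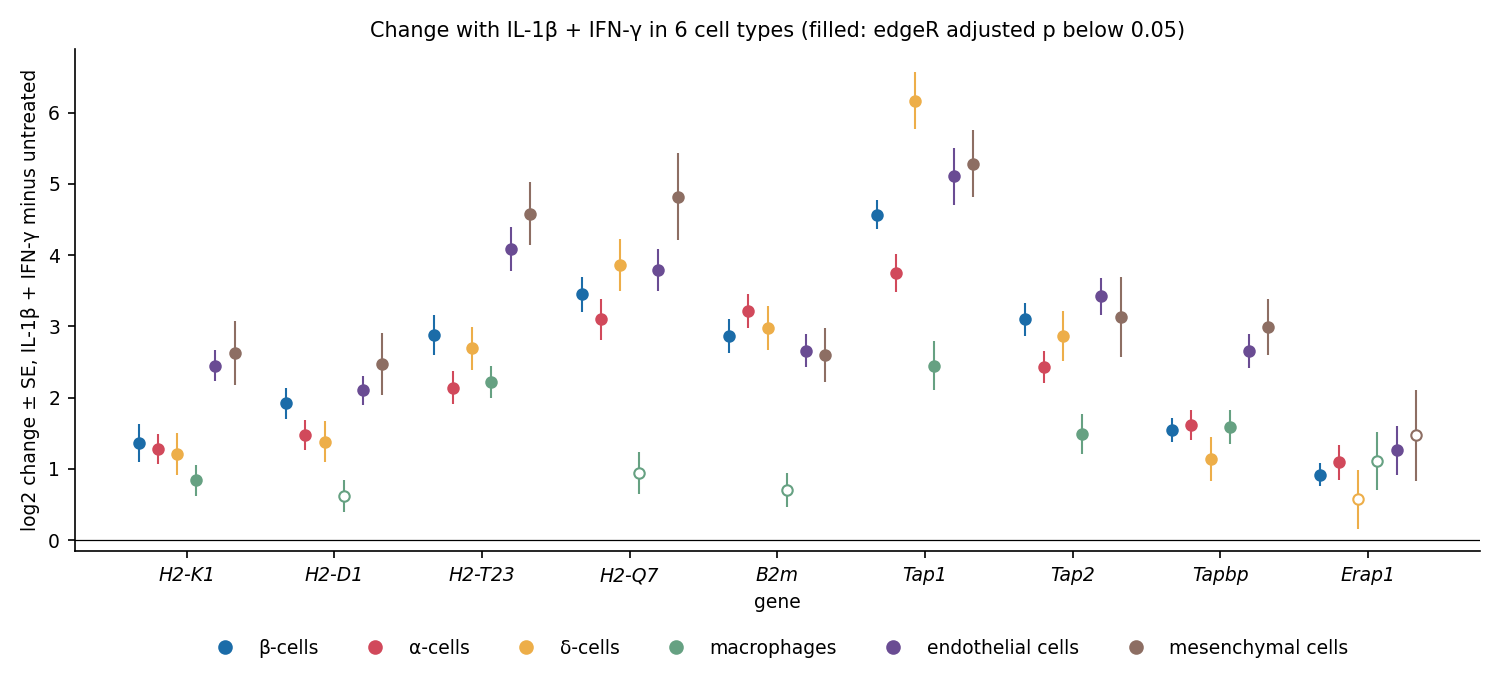
Log2 change of 9 class I presentation genes between cytokines and untreated in each of 6 cell types, with 1 SE; filled symbols passed an adjusted p of 0.05. Macrophages lie lowest for B2m (0.70) and H2-Q7 (0.94), and endothelial and mesenchymal cells highest for H2-K1 (2.45 and 2.63) and H2-T23 (4.09 and 4.58).

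The third comparison asked how far class I levels depended on nitric oxide, which cytokine-treated β-cells make through inducible nitric oxide synthase. With NMMA present, the members rose over untreated β-cells in 10 of 10 genes, against 12.9% of all genes higher, with log2 changes from 1.30 for Erap1 to 5.51 for Nlrc5. Over untreated cells of their own type they also rose in 10 of 10 genes in α-cells (5.93% of all genes higher), δ-cells (5.98%) and endothelial cells (5.06%), and in 8 in macrophages (5.16%) and mesenchymal cells (1.92%). In macrophages the Erap1 call was kept in 2 of the 8 fits that left out 1 library (0.94 to 1.80 in the others). The macrophage H2-K1 (0.90) and H2-Q7 (0.98) calls were lost without untreated replicate 1, and H2-Q7 (1.28) without replicate 2 of cytokines with NMMA. In mesenchymal cells the H2-D1 (2.61), Tap2 (3.27) and B2m (2.59) calls were lost without untreated replicate 1. Without untreated replicate 2, H2-D1 (2.60), Tap2 (3.62) and H2-K1 (2.62) were not called there. In β-cells Tap1 and Tapbp were lower with cytokines alone than with cytokines and NMMA, and the other 8 were not called. Scaling by total UMIs gave a larger count of β-cell members called lower, stated in the section on processing. The share of all genes under that scaling is not given, so this count is not read as a result about the members. Tap1 was at 232.1 and 196.1 CPM with NMMA against 137.7 and 106.6 CPM without (−0.81 ± 0.17, adjusted p = 0.0143), and Tapbp at 558.8 and 478.9 CPM against 396.9 and 303.6 CPM (−0.57 ± 0.16, adjusted p = 0.0395), beside 10.3% of all genes lower. In both genes the 2 conditions did not overlap. In replicate 1 most β-cells of the 2 conditions lay in different clusters, 1035 of 1137 under cytokines in 1 and 472 of 645 with NMMA in another. Within the first of these Tap1 was at 123.8 CPM under cytokines and 164.1 with NMMA, and within the other at 264 and 266.3 CPM. In replicate 2 most cells of both lay in 1 cluster, with Tap1 at 109.9 and 230.7 CPM. These cluster levels are CPM without TMM scaling, unlike the library levels in this paragraph, and are given with no test. H2-T23 was at 731.7 and 474.1 CPM with NMMA against 465.7 and 293.8 CPM (−0.67 ± 0.26, adjusted p = 0.103), and DESeq2 called it (−0.66, adjusted p = 0.0291). Erap1 (−0.38 ± 0.16, adjusted p = 0.126) was called with the replicate block alone (adjusted p = 0.00489). H2-D1 (−0.04 ± 0.21), H2-Q7 (−0.06 ± 0.22) and Nlrc5 (−0.11 ± 0.21) had the smallest differences, with B2m, H2-K1 and Tap2 between −0.18 and −0.25. The Tapbp call was lost on leaving out any 1 of the 8 libraries, and the Tap1 call without replicate 1 of cytokines with NMMA (−0.67) or replicate 2 of cytokines (−0.62).

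In α-cells 6 members were lower with cytokines alone than with cytokines and NMMA, against 4.91% of all genes. H2-T23 was at 318.6 and 425.5 CPM with cytokines alone and at 1051 and 1006 CPM with NMMA (−1.46 ± 0.22, adjusted p = 0.000586). H2-Q7 was at 61.2 and 100.3 CPM against 208 and 202.7 CPM (−1.31 ± 0.23), Tapbp at 290.4 and 340.5 against 657.5 and 652.2 CPM (−1.05 ± 0.21), and Tap1 at 153.8 and 131 against 274 and 306.6 CPM (−1.03 ± 0.22). In all of these the lower library with NMMA lay above the higher one without. H2-K1 (−0.83 ± 0.21, adjusted p = 0.0172) and Tap2 (−0.68 ± 0.20, adjusted p = 0.033) were the other members that were lower. The H2-K1 call was lost without any 1 of the 4 cytokine-treated libraries (−0.72 to −0.94), the Tap2 call without any 1 of those or of the untreated ones (−0.65 to −0.72), and the Tap1 call without replicate 2 of cytokines with NMMA (−0.95). B2m was at 1786 and 1767 CPM and at 1883 and 2200 CPM (−0.20 ± 0.22, adjusted p = 0.626), and was called with scaling by total UMIs (−0.59, adjusted p = 0.044). H2-D1 (−0.52 ± 0.20, adjusted p = 0.114) was called with the replicate block alone (adjusted p = 0.0166), and without replicate 2 of cytokines with NMMA 3 members were called. Under cytokines alone, 49 of 49 and 59 of 74 α-cells lay in a cluster led by Hspa1a, Hspa1b and Hspb1, and with NMMA 86 of 99 and 97 of 104 lay in one led by Saa3, Trf and Ccl2. The part of this in the difference was not tested.

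In δ-cells Tapbp was at 353.3 CPM under cytokines and at 1068 and 909.1 CPM with NMMA (−1.48 ± 0.32, adjusted p = 0.0116), and Tap2 at 182.2 CPM against 474.7 and 336.8 CPM (−1.16 ± 0.31, adjusted p = 0.0447), against 1.44% of all genes lower. All 10 members had a negative difference there, H2-K1 with −1.10 ± 0.32 (adjusted p = 0.0753) and H2-T23 with −1.07 ± 0.31 (adjusted p = 0.0752) among them, and 7 were called with the replicate block, against 2.8% of all genes in that fit. DESeq2 called 0 of them (0.382% of all genes lower), and Tapbp alone was called without doublets (1.04%) or with scaling by total UMIs (0.719%). Leaving out replicate 1 of cytokines with NMMA left 0, and the Tap2 call was kept in 1 of the 6 fits that left out 1 library (−0.81 to −1.16 in the others). In macrophages, endothelial and mesenchymal cells 0 members were called by edgeR, with or without adjustment at 0.05. Of all genes, 0.116% were lower in macrophages and none in the other 2 types (351 endothelial and 173 mesenchymal genes had an unadjusted p under 0.05). In endothelial cells the differences of the heavy chains, B2m and the transporter ran from −0.31 ± 0.27 for H2-T23 to 0.10 ± 0.26 for H2-Q7. The mean levels there with cytokines alone and with NMMA were 69.5 and 95.6 CPM for Erap1, 807.7 and 972 for Tapbp and 80.05 and 62.7 for Nlrc5. Whether the differences in α-cells exceeded those in other types was not tested.

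**Figure D5:**
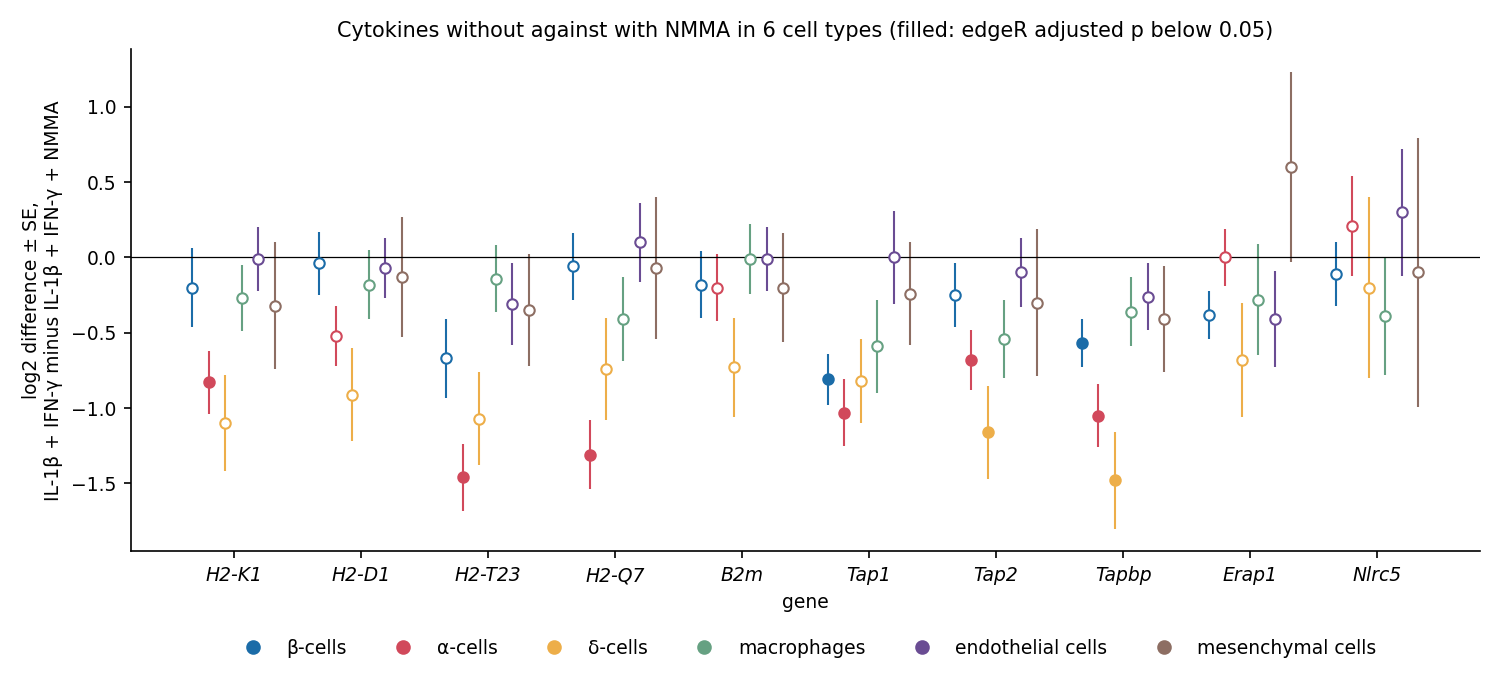
Log2 difference of the 10 class I presentation genes between cytokines and cytokines with NMMA in each of 6 cell types, with 1 SE; filled symbols passed an adjusted p of 0.05. Called differences are below 0 and lie in β-, α- and δ-cells only, from −0.57 for Tapbp in β-cells to −1.48 for Tapbp in δ-cells.

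With NMMA alone no change of a class I gene was detected. B2m in β-cells was at 260.8 and 196.1 CPM against 195.9 and 198.5 CPM untreated (0.21 ± 0.22, adjusted p = 0.911), and H2-K1 at 696.1 and 548.3 CPM against 633 and 507.2 CPM (0.13 ± 0.26, adjusted p = 0.97). No member was called by edgeR in any of the 6 types and 1 had an unadjusted p under 0.05, Erap1 in endothelial cells (−0.89 ± 0.37, adjusted p = 1). No gene of any kind was called in this comparison, in which 930 β-cell genes had an unadjusted p under 0.05, while DESeq2 called 9 β-cell genes and none in the other 5 types. In those types 77 to 334 genes had an unadjusted p under 0.05 by edgeR.

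Other genes of the pathway were counted from fixed lists. In β-cells all 5 genes of the immunoproteasome and its PA28 activator, which cut the peptides, rose with cytokines: Psmb9 by 4.04, Psmb8 by 3.91, Psmb10 by 2.96, Psme2 by 2.66 and Psme1 by 2.38 on the log2 scale. Psmb8 went from 40.3 and 42.5 CPM to 733.2 and 514.6 CPM. Between cytokines and cytokines with NMMA none of the 5 was called in β-cells, with differences from −0.13 to 0.17. In α-cells Psmb10 (−0.87), Psmb8 (−0.86) and Psmb9 (−0.73) were lower with cytokines alone, beside the share of all α-cell genes given above. Whether this differed from β-cells was not tested. All 5 also rose with cytokines in α-, δ-, endothelial and mesenchymal cells, and 4 of 5 (not Psmb9) in macrophages, where 1.73% to 12.3% of all genes rose.

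In β-cells 23.8% of all genes were higher and 22.5% lower, beside which the counts of these lists are read. Of 7 other class I heavy chains tested in β-cells, 5 rose: H2-Q6 (3.99), H2-Q10 (3.48), H2-Q4 (2.48), H2-T22 (2.11) and H2-M3 (0.85), while H2-Q2 (0.10) and H2-T24 (0.32) were not called. The H2-M3 call was lost without cytokines replicate 1 (0.67) or untreated replicate 2 (0.66). Of the class I-like genes 2 were tested and Mr1, which presents vitamin metabolites, fell by 1.12 (adjusted p = 0.0172). Of 5 other loading factors, Tapbpl (2.84), a tapasin relative, and the chaperone Calr (0.62) rose, Uggt1 (−0.38, adjusted p = 0.029) fell, and Pdia3 (0.27) and Canx (0.33) were not called. The Uggt1 call was kept in 2 of the 8 fits that left out 1 library (−0.31 to −0.44 in the others), and the Mr1 call in 5 of 8 (−0.98 to −1.28 in the others). The Calr call was lost without untreated replicate 1 (0.55). None of 6 other peptidases was called (−0.21 to 0.24). Of these Npepps was the most abundant, with 93.4 and 98.7 CPM in the untreated libraries and 118.9 and 108.2 CPM under cytokines, and with cytokines and NMMA it was higher than untreated by 0.41 ± 0.12 (adjusted p = 0.0437), a call lost on leaving out any 1 of the 8 libraries. Among the regulators Irf1 (3.21), an interferon-induced transcription factor, rose, and Rfx5 (0.79), Nfya (0.68), Rfxap (0.51) and Irf2 (0.34) rose by less. The Irf2 call was kept in 2 of the 8 fits that left out 1 library (0.31 to 0.38 in the others), and the Rfxap (0.38 to 0.53 in the others) and Nfya calls (0.42 to 0.72) in 5 of 8 each. Irf1 rose in each of the other types, by 2.89 in δ-cells to 4.87 in mesenchymal cells. Irf1 was at 186.2 and 186.8 CPM in cytokine-treated β-cells and at 293.6 and 275.5 CPM with NMMA (−0.61, adjusted p = 0.011), a difference of the same sign as that of Tap1, and Irf2 (−0.70, adjusted p = 0.00597), Uggt1 (−0.67, adjusted p = 0.00789) and H2-T24 (−2.90, adjusted p = 0.0345) were also lower with cytokines alone, beside 10.3% of all genes. The H2-T24 call was kept in 3 of the 8 fits that left out 1 library (−2.05 to −3.49 in the others), and the Irf1 call was lost without replicate 1 of cytokines (−0.61) or of cytokines with NMMA (−0.56).

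The genes whose levels most resembled the members' mean were sought over 47 sums of cells (6 types by 8 libraries, less 1) among 8724 genes. The nearest were Ifi47 (Pearson r = 0.967), Trafd1 (0.950), Parp14 (0.938), Idnk (0.935), Xaf1 (0.933), Parp9 (0.931), Cd274 (0.930), Nmi (0.928), Gbp5 (0.926) and Rtp4 (0.922). Ifi47 and Gbp5 encode interferon-inducible GTPases, and Cd274 encodes PD-L1, a ligand that restrains T cells. Among the members themselves, H2-T23 followed the mean most closely (0.985) and Erap1 least (0.550). These values describe likeness over sums that share libraries and are given with no test.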

How the data were processed

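Intact islets were dispersed after treatment and sequenced with the 10x 3′ chemistry, and each of the 8 libraries was deposited by the authors as a matrix of UMI counts per gene and cell, with nothing normalized. The matrices were made with CellRanger 3.0.0 (replicate 1) and 6.0.0 (replicate 2) per the file headers, on mm10 per the submitters' processing notes. The 30406 genes listed in both versions were used, of 31053 and 32285. Barcodes with 200 to 5500 genes (replicate 1) or 200 to 6500 genes (replicate 2) and at most 10% mitochondrial UMIs were kept, as in the study's methods. Cells were clustered with scanpy 1.11.5 (30 principal components, 23 clusters) on 1994 variable genes, without the class I pathway genes, and named from marker lists. Doublets (186 barcodes called, 1.71%) were kept and removed as an alternative.

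Counts were summed per library and cell type where 10 or more cells were present. All 4 conditions of a type were fitted together by edgeR 4.0.16 (quasi-likelihood, TMM, filter on low counts), with Benjamini-Hochberg adjustment over all genes tested and a threshold of 0.05. The p-values of these fits measure the spread between libraries of 2 pools of mice, with the conditions of a pool not paired. Differences of response were fitted over both types, and untreated levels over all 6 types, with the library as a block. Their p-values measure the spread of cell types within libraries and not that between pools of mice. DESeq2 1.42.0, scaling by total UMIs, no filter, the replicate as a block, removal of doublets and leaving out each library were the alternatives, and removal of cells with a second hormone was chosen after seeing the data. Replicate numbers pair the samples, since the islets of a replicate were 1 pool divided over the conditions; the correlation of same-numbered deviations was 0.12 to 0.70 over the 6 types. The main edgeR fits were tested on simulated data, while the alternatives and the other scripts were not. Of simulated 2-fold and 4-fold changes with cytokines, 33% and 100% were called in β-cells. In δ-cells 0% and 20% were called, and in mesenchymal cells 0% and 20.3%, with the other types between. For the difference from the β-cell response, 7% and 51% were called in α-cells and 0% and 4% in δ-cells. A difference that was not called there can have been missed.

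All members were named in every type for the cytokine response, other pathway genes were named where called in β-cells or most abundant in their list, and the 10 pattern neighbours were ranked by Pearson's r with the members' mean log2(CPM + 1) among genes of at least 10 CPM on average. One gene of the regulator list, and 1 of the 5 promoter words searched, which matched 0 of the 8 member promoters, are not reported here. The members and lists were chosen with earlier results of these data known. Gene positions are from GENCODE M21 and promoters from RefSeq, both on GRCm38. R 4.3.3 and Python 3.11.15 were used.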

Additional observations from a re-analysis of the deposited data

Results flagged for a closer look

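In the test of the difference between the cytokine responses of 2 cell types, 9 results passed the threshold. Macrophages responded less than β-cells in H2-Q7 (−2.17 on the log2 scale), B2m (−1.91), Tap1 (−1.89), Tap2 (−1.39) and H2-D1 (−1.04). Endothelial cells responded more than β-cells in H2-T23 (1.43), H2-K1 (1.24) and Tapbp (1.23), and mesenchymal cells in H2-T23 (1.73). Untreated macrophages had the highest level of these 5 genes of any type, with the summed β-cell markers in them lower under cytokines (2289 and 6760 CPM, without further scaling) than without (18570 and 43590). Macrophages and endothelial cells under cytokines lay mostly in clusters of their own. The part of these in the differences was not tested.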

How the results depend on the processing

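Counts are of members called. The 2 or 1 libraries a group and the small non-β sums (11 to 115 α- and δ-cells, 13 to 72 of the others) limit what could be called. Scaling by total UMIs gave 4 members lower in β-cells and 1 in δ-cells between cytokines and cytokines with NMMA, and in the difference from the β-cell response 3 lower in α-cells, 4 higher in δ-cells and 3 higher in mesenchymal cells. The share of all genes is not given for the β-cell and mesenchymal counts, so they are not read as results about the members. Untreated against β-cells it gave 5 higher and 0 lower in α-cells, 6 higher in δ-cells, 0 lower in macrophages, 0 lower in endothelial cells, and 3 higher and 2 lower in mesenchymal cells, and it turned the α-cell difference of B2m to 0.04 and the endothelial difference of Tapbp to 0.13; this scaling also moved the median change of all genes with cytokines from 0.00 to −0.22 in β-cells, from −0.02 to −0.50 in α-cells and from −0.08 to 0.15 in δ-cells. The δ-cell difference between cytokines and cytokines with NMMA (2 lower) became 0 with DESeq2, 5 with no filter, 7 with the replicate block, 1 without doublets and 4 without cells holding a second hormone. The share of all genes is not given with no filter or without cells holding a second hormone, so these counts are not read alone. Without the replicate block, untreated α-cells had 0 members higher and 0 lower than β-cells. The replicate block lost no call of a single gene. For all these the cause was not tested.

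Leaving out each library in turn gave, for cytokines against untreated, 10 to 10 members in β-cells, 9 to 10 in α-cells, 7 to 9 in δ-cells, 5 to 6 in macrophages, 9 to 10 in endothelial cells and 4 to 9 in mesenchymal cells. For cytokines with NMMA against untreated it gave 10 to 10, 9 to 10, 9 to 10, 5 to 9, 10 to 10 and 5 to 9 in the same order. Between cytokines and cytokines with NMMA it gave 0 to 1 lower in β-cells, 3 to 6 in α-cells and 0 to 2 in δ-cells. For the difference from the β-cell response it gave 0 to 2 lower in α-cells, 0 to 1 higher in δ-cells, 3 to 7 lower in macrophages, 0 to 3 higher in endothelial cells and 0 to 3 higher in mesenchymal cells. Among these counts, the lowest for macrophages with cytokines and NMMA came without untreated replicate 1. In mesenchymal cells the lowest, with cytokines and with cytokines and NMMA, came without untreated replicate 1 or 2. In the difference from the β-cell response, the lowest came without untreated replicate 1 in endothelial cells and without cytokines replicate 1 in macrophages. Of the values of single genes outside these left-out fits, 1019 kept direction and side of the threshold, 44 lost their call and 2 reversed. Scaling by total UMIs lost 14 of these calls and DESeq2 lost 12. No filter, no block and removal of cells with a second hormone lost 5 each, and removal of doublets lost 3.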
